A study of Bos taurus with 2 samples.

Results

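The miRNAs described here are those that the array design names bta-miR-2881 to bta-miR-2904, a block of consecutive numbers that the miRNA registry gave to small RNAs found in cattle. Every array miRNA whose number lies in that range was taken, with any letter or suffix. The array carried 23 of them among 670 bovine miRNAs, 1 for each number except 2884. The rule uses no signal, though the block was taken up with earlier results of these data known. Whey from the raw milk of Holstein cows had been split by a spin that the protocol gives as 10000 g. The pellet, washed in PBS, is called exosome in the labels, and the supernatant is the liquid above it. The title of the supernatant sample speaks of ultracentrifugation. For each fraction the RNA of 3 samples was mixed in equal parts and measured on 1 array. Fraction is the only difference between the arrays that the labels give. With 1 array per fraction no difference has a replicate check and no p-value is given. Values written with ± are SDs between the spots of 1 array. For a miRNA they are taken within each probe, so the gap between its probes is left out.

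MicroRNAs are short RNAs that guide Argonaute proteins to messenger RNAs by pairing of a seed near their 5′ end, which lowers the output of the target. Numbers are assigned in the order of registration and carry no meaning about function. Consecutive numbers also do not make the members of this block a family by sequence. In milk, miRNAs lie inside vesicles and also outside them, bound to protein. On arrays of this type the RNA is labelled at its 3′ end and the probes are complementary to the 3′ part of the miRNA. Probes are shortened to even out the strength of pairing, so a GC-rich miRNA gets a short probe.

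The arrays differed in brightness over the probes detected on both. These 53 of 1465 probes had a 75th percentile of 473 (exosome) and 15030 (supernatant). Dividing by it moved every log2 difference (exosome over supernatant) up by 4.99. Differences are therefore given both after this scaling and without it. The 53 include both probes of miR-2881, miR-2888 and miR-2892. Of the 30 miRNAs detected on both arrays, 15 had a run of at least 4 C or at least 4 G in the longest probe. The 75th percentile of all probes moved differences far less: that of miR-2881 was -4.60 unscaled and -4.34 with it. RNAs spiked in before labelling were 3.47-fold and 2.60-fold brighter on the exosome array, and RNAs spiked in before hybridisation stood at 0.96-fold and 0.93-fold. Of 10 miRNAs known from milk and mammary epithelium, the exosome array detected 8 and the supernatant array 4, with summed unscaled signals of 1048 and 370 (negative signals counted as 0 in these sums). Of 21 array miRNAs listed as markers of leukocytes, red cells, muscle, liver, neurons, endothelium or mesenchyme, the exosome array detected 0 and the supernatant array 4, with summed unscaled signals of 21.7 and 217. After scaling to the exosome array the supernatant sum was 6.83. The exosome sum of 21.7 comes from miRNAs of which 0 were detected there, so no direction toward exosome can be read from it. The markers' part in the results was not tested. Fewer carriers of a miRNA and less of it in each cannot be told apart in such pools. The marker lists hold no miRNA that defines a vesicle, so the label exosome was not checked.

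Each of the 23 miRNAs had 2 probes of 30 spots, and in every pair the longer probe was the shorter one with 1 base more at its 3′ end. The longer probes measured 10 to 20 bases. The sequences shown are those of the probes as the scanner files give them, 5′ to 3′, with runs of at least 4 C or at least 4 G in capitals. The first 10 lines are the longer probes of the miRNAs detected on at least 1 array.
miR-2881: cacccgCCCCC
miR-2888: ccaaCCCCCCCa
miR-2892: GGGGGGtcgcg
miR-2882: caGGGGaGGGGc
miR-2885: cgCCCCggcg
miR-2893: CCCCgggcattct
miR-2898: tCCCCggcatctcc
miR-2899: tccaaCCCCggcc
miR-2902: cccacctccaggg
miR-2887: cgcaccggaccc
The next 4 are shown for contrast, since they are as rich in G and C but were detected on neither array.
miR-2886: ggtgcggccgg
miR-2889: gccggcgggag
miR-2890: aggccgggagcg
miR-2901: agcgctcgcggg

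The supernatant array detected 9 of the 23 miRNAs and the exosome array 4. Detection of a probe needed the scanner software's well-above-background flag on 50% or more of its spots, and detection of a miRNA needed 1 such probe. The 9 are 39.1% of the block, against 12.7% of all array miRNAs on the supernatant array. The 4 are 17.4%, against 9.85% on the exosome array. On both arrays 3 were detected, or 13.0%, against 4.48%. These are miR-2881, miR-2888 and miR-2892. Detection on the supernatant array only was seen for miR-2882, miR-2885, miR-2893, miR-2898, miR-2899 and miR-2902, and on the exosome array only for miR-2887. The other 13 were detected on neither. Among the other miRNAs named from cattle sequencing, 35 of the 241 numbered miR-2286 to miR-2491 (14.5%) and 0 of the 30 numbered miR-2284 or miR-2285 were detected on the supernatant array. All 9 had both probes detected there, whereas on the exosome array miR-2887 had only 1.

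**Figure D1:**
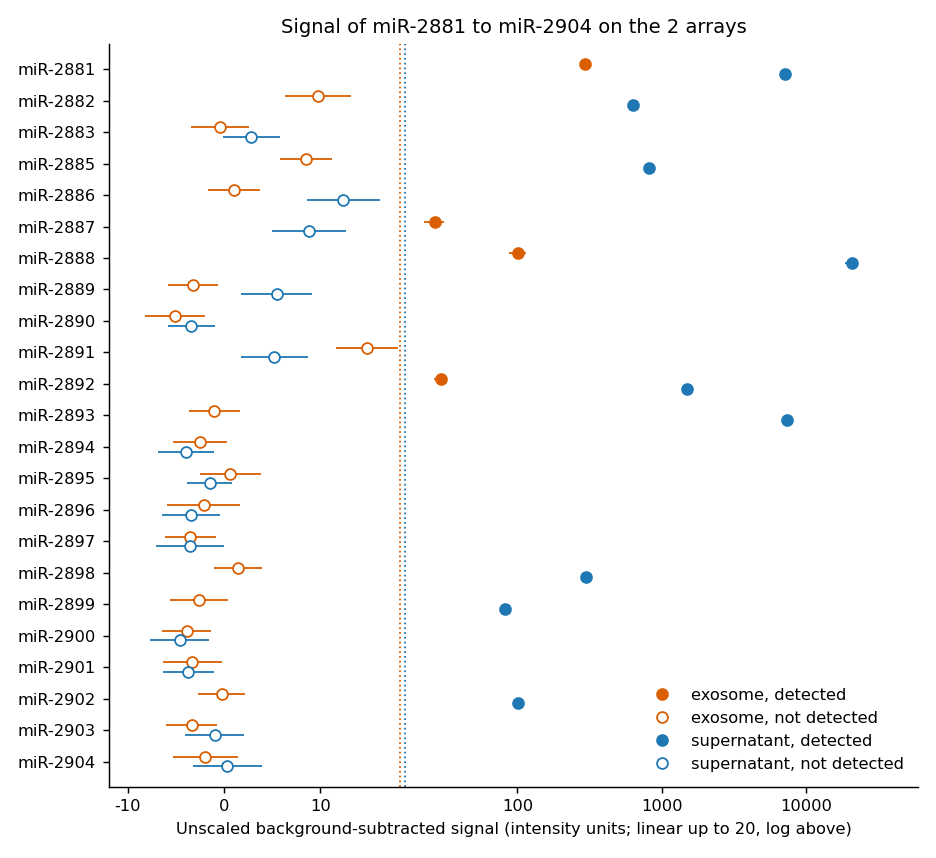
Unscaled background-subtracted signal of each of the 23 miRNAs (rows) on the exosome array (orange) and the supernatant array (blue), on an axis that is linear up to 20 and logarithmic above. Points are means over probes, bars are SDs between spots within a probe, and filled points are detected. Dotted lines mark the lowest signal of any detected probe, 18.2 and 18.8. The blue filled points run from 82.3 to 20662 and the orange ones from 26.6 to 295.

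miR-2888 was the brightest of the block on the supernatant array and had, without scaling or with the 75th percentile scaling, the largest supernatant excess of the 3 miRNAs detected on both arrays. Over 60 spots on each array it read 101.1 ± 13.6 in exosome and 20662 ± 1980 in supernatant. The spots of its longer probe ran from 78.4 to 134 around a median of 100.2 in exosome, and from 19017 to 25597 around 20513 in supernatant. No spot of one array reached into the range of the other. Its log2 difference was -2.69 ± 0.24 after scaling, or 6.44-fold higher in supernatant, and -7.68 without scaling, or 204-fold. The 11-base and the 12-base probe gave -2.69 and -2.68 after scaling. With normexp background correction, which adds an offset of 50 to all signals, the difference was -2.13.

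miR-2892, whose probe starts with a run of 6 G, read 29.4 ± 2.88 in exosome (54 spots) and 1504 ± 36 in supernatant (57 spots). The difference was -0.69 ± 0.15 after scaling, under 2-fold, and -5.68 without, or 51.1-fold higher in supernatant. Its probes gave -0.86 and -0.54 after scaling. The sign depended on the background correction too: normexp turned the scaled value to 0.77.

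miR-2881 was the brightest of the block on the exosome array. It read 295 ± 17.8 there (58 spots) and 7138 ± 541 on the supernatant array (58 spots). After scaling it was 0.39 ± 0.14, under 2-fold and slightly to the exosome side, whereas without scaling it was -4.60, or 24.2-fold higher in supernatant. Its probes read very differently. The 10-base probe read 67.5 ± 5.92 in exosome and 2177 ± 93.5 in supernatant, and the probe with 1 more C read 523 ± 24.4 and 12100 ± 760. The differences they gave after scaling were -0.02 for the shorter and 0.46 for the longer. They lie further apart than the ± 0.14 above, and only the longer probe lay to the exosome side.

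A common scaling factor shifts all differences alike, so their distance from each other does not depend on it. The exosome over supernatant ratio of miR-2881 was 8.45-fold that of miR-2888, a gap of 3.08 ± 0.28 on the log2 scale. It was 2.11-fold that of miR-2892, a gap of 1.08 ± 0.20. miR-2892 stood above miR-2888 by 4.00-fold. Quantile normalization is no common factor and changed this order: it gave 0.17 for miR-2881, -3.15 for miR-2888 and -3.38 for miR-2892. Normexp changed it too, with 0.49 for miR-2881 and 0.77 for miR-2892. In the order of the 30 array miRNAs detected on both arrays, from the lowest exosome over supernatant ratio up, miR-2888 took place 3, miR-2892 place 10 and miR-2881 place 14. These 3 had a median of -0.69 with scaling and -5.68 unscaled, against 1.30 and -3.69 over all 30.

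**Figure D2:**
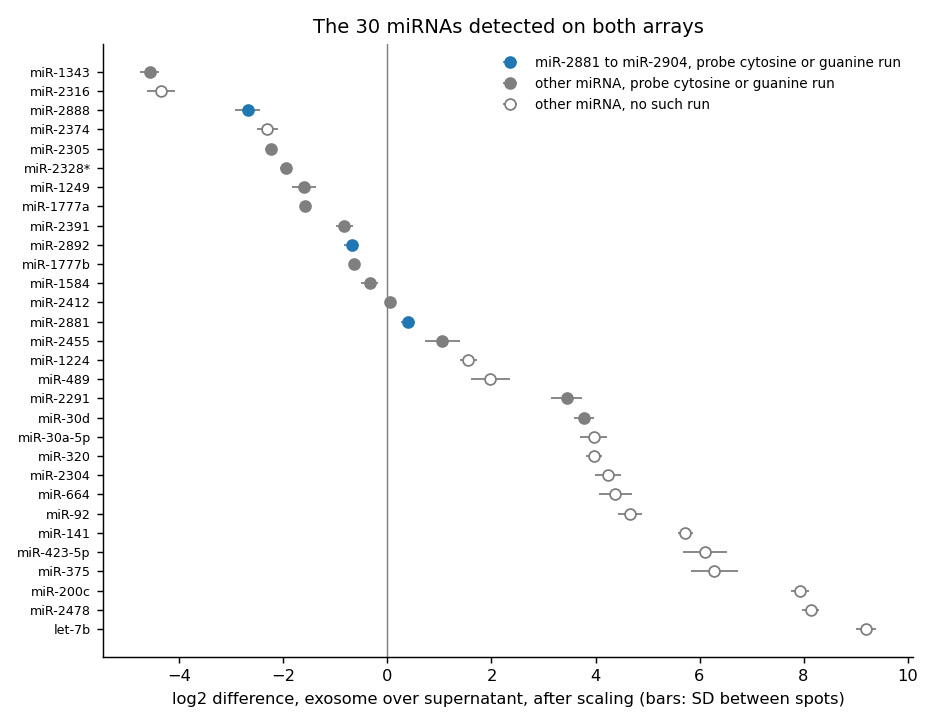
Scaled log2 difference, exosome over supernatant, of the 30 miRNAs detected on both arrays, ordered from lowest to highest. Bars are SDs between spots within probes. Blue points are miR-2888, miR-2892 and miR-2881, grey points are other miRNAs with a run of at least 4 cytosines or guanines in the longest probe, and open points have no such run. The blue points lie at places 3, 10 and 14, and 13 of the 15 lowest miRNAs but 2 of the 15 highest carry such a run.

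For the 6 miRNAs detected only in supernatant the fold is a lower bound. Its base is their own exosome signal or, where that is smaller, 18.2, the dimmest detected probe of the exosome array. miR-2893 was far the brightest of them. Over 60 spots it read 7323 ± 120 there, while its 56 exosome spots scattered around 0, at -1.0 ± 2.68. Its probes read 7389 ± 128 and 7257 ± 110 on the supernatant array, and the lowest of those spots was 7059. The negative control spots of the exosome array read 4.67 ± 3.46, so miR-2893 was not above them. It was at least 402-fold higher in supernatant without scaling and at least 12.6-fold higher after it. Normexp brought the scaled log2 bound from -3.66 to -1.63.

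miR-2885 and miR-2882 followed at a lower level. miR-2885, with the shortest longer probe of the block, read 819 ± 26.4 in supernatant and 8.53 ± 2.73 in exosome. It was at least 44.9-fold higher in supernatant without scaling and at least 1.41-fold after it. miR-2882 read 635 ± 38.1 and 9.73 ± 3.41, with bounds of at least 34.8-fold and 1.10-fold. The scaled bound of miR-2882 was carried by its 12-base probe, since the 11-base probe alone had none, and with normexp neither miRNA had a scaled bound. None of their exosome spots was well above background, but with the looser flag for positive and significant spots both were detected on the exosome array as well. Their scaled bounds are short of 2-fold.

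miR-2898 read 300.3 ± 22 in supernatant and 1.39 ± 2.49 in exosome. Without scaling it was at least 16.5-fold higher in supernatant. miR-2902 read 100.9 ± 7.75 and -0.26 ± 2.47, with a bound of at least 5.54-fold. miR-2899 read 82.3 ± 7.18 and -2.61 ± 3.02, with a bound of at least 4.51-fold. After scaling these 3 had no bound, since the scaled floor of the exosome array lay above their supernatant signals. The probes of miR-2899 differed: the 12-base probe read 35.1 ± 4.54 and the 13-base probe, with 1 more C, 129 ± 9.09. For miR-2902 the shorter probe was the brighter one, at 113 ± 9.41 against 88.5 ± 5.61, and for miR-2898 the pair read 297 ± 19.9 and 304 ± 23.9.

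Without scaling, miR-2887 was the only detected miRNA of the block that was brighter on the exosome array, and 1 of its probes carried the signal. Its 12-base probe read 50.8 ± 4.91 on the exosome array, where the spots ran from 41.7 to 61, and 16.5 ± 4.53 on the supernatant array, where they ran from 7.87 to 26. The spots of the arrays did not overlap. The 11-base probe, which lacks the last C, read 2.51 ± 3.29 and 1.10 ± 2.88 and was at background on both. On the supernatant array 8 of the 30 spots of the longer probe were well above background, short of the share required. Over both probes miR-2887 read 26.6 and 8.81, which puts it at least 45.0-fold above the supernatant with scaling and at least 1.42-fold above it unscaled. Scaled to the labelling controls it had no bound.

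Counted at 2-fold with bounds included, the balance of the block followed the scaling. After scaling, 2 of the 23 (miR-2888 and miR-2893) were at least 2-fold higher in supernatant, or 8.70%, against 1.64% of all array miRNAs, and 1 (miR-2887) was higher in exosome, or 4.35%, against 7.76%. Without scaling 9 were at least 2-fold higher in supernatant, or 39.1%, against 7.91%, and 0 in exosome, against 2.24%. Scaled to the labelling controls or to the hybridisation controls the supernatant count was 9 as well, against 11.5% and 7.61% of all array miRNAs, and the exosome count 0, against 0.597% and 2.39%. miR-2888 and miR-2893 were at least 2-fold higher in supernatant under all 7 scalings tried and with normexp.

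**Figure D3:**
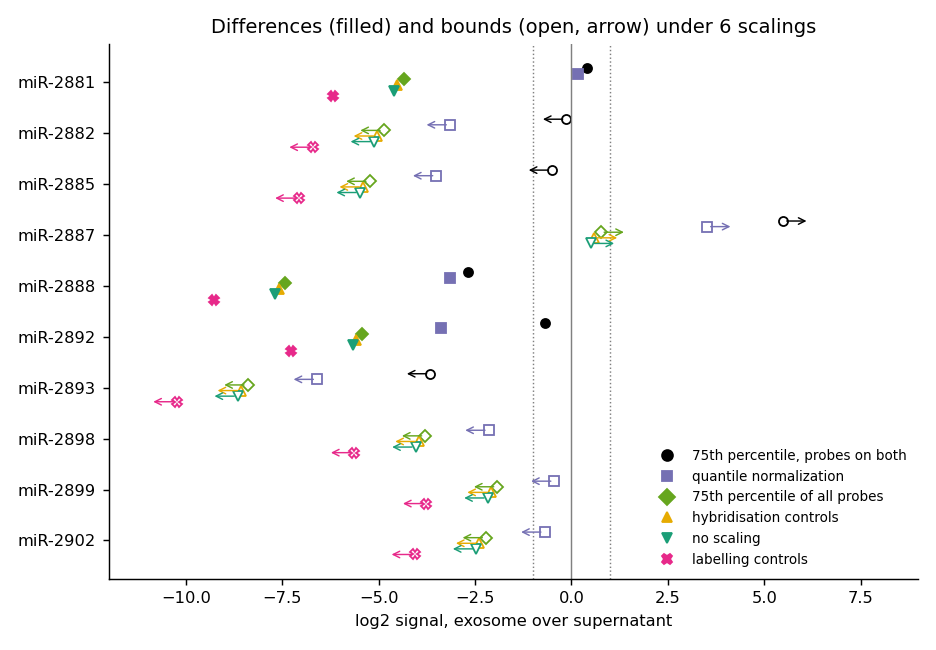
log2 signal, exosome over supernatant, of the 10 detected miRNAs (rows) under 6 of the 7 scalings (colours and symbols); scaling to the median of the probes on both arrays is not drawn. Filled symbols are differences, open symbols with an arrow are bounds, a missing symbol means no bound, and dotted lines mark 2-fold. miR-2888 and miR-2893 lie left of the 2-fold line under every scaling shown, and miR-2887 has a bound to the right of 0 under 5 of the 6 and none with labelling controls.

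The 13 miRNAs detected on neither array were miR-2883, miR-2886, miR-2889, miR-2890, miR-2891, miR-2894, miR-2895, miR-2896, miR-2897, miR-2900, miR-2901, miR-2903 and miR-2904. Their signals ran from -5.11 to 14.9 in exosome and from -4.61 to 12.4 in supernatant, below the lowest detected probe of each array. Of their spots, 8 of 767 were well above background in exosome and 14 of 762 in supernatant. All of these spots belong to a pair of miRNAs. miR-2886 had all 14 on the supernatant array, all from its 11-base probe, which read 18 ± 3.62 there and 3.71 ± 3.33 on the exosome array. With 14 of 30 spots it fell just short of detection. miR-2891, with a longer and AT-rich probe, had all 8 on the exosome array. It read 14.9 ± 3.21 there and 5.22 ± 3.44 on the supernatant array. The scanner software's own gene flag counted miR-2886 and miR-2887 as detected on the supernatant array and miR-2891 on the exosome array.

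The probes of this block are short and rich in G and C. The GC content of the longer probe had a median of 76.9% in the block and 50% over the 670 array miRNAs, and its length a median of 13 and 17 bases. GC content alone did not separate the detected from the undetected members. The 9 on the supernatant array had 69.2% to 100% GC and the 14 not detected there 35% to 90.9%. miR-2886, miR-2889, miR-2890 and miR-2901 have probes of at least 83.3% GC and were not detected. The probes did differ in their runs, which were looked for after the signals had been seen. A run of at least 4 C or at least 4 G in the longest probe was held by 8 of the 9 detected on the supernatant array and by 0 of the 14 others. The exception is miR-2902, whose longest runs are of 3 C and 3 G. This separation of the block holds at a run of 4, a length chosen after the signals had been seen. A run of at least 3 was held by 16 members, of which 9 were detected on the supernatant array, against 0 of the 7 without. A run of at least 5 was held by 3 members, all detected, against 6 of the 20 without. Runs were sought on the probe strand, where C and G together cover both strands of the pairing. The 8 are 34.8% of the block, against 8.21% of all array miRNAs.

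The 647 array miRNAs outside the block were split in the same way. Of 47 with such a run, 33 (70.2%) were detected on the supernatant array, and of 600 without, 43 (7.17%). On the exosome array the counts were 12 of 47 (25.5%) and 50 of 600 (8.33%). Of the 35 other miRNAs detected on the exosome array only, 0 had a run. In each GC class the share was higher with a run, C and G runs being counted together. With GC of at least 75%, 17 of 17 other miRNAs with a run and 11 of 23 without were detected on the supernatant array. With GC from 60% to under 75% it was 10 of 15 and 20 of 111, and below 60% it was 6 of 15 and 12 of 466. In the block the counts were 6 of 6 and 1 of 7 in the highest class, and 2 of 2 and 0 of 5 in the middle one. All 19 other miRNAs with a run of G were detected on the supernatant array, as were miR-2882 and miR-2892 in the block. For a run of C it was 14 of 28, and 6 of 6 in the block. These 14 were 10 of 10 at a GC content of at least 75% and 4 of 18 below it, so most other miRNAs with a C run and less GC were not detected. In the block it was 4 of 4 and 2 of 2. These are counts over 1 array with no test. Whether the probe sequence itself takes part in the signal was not tested.

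**Figure D4:**
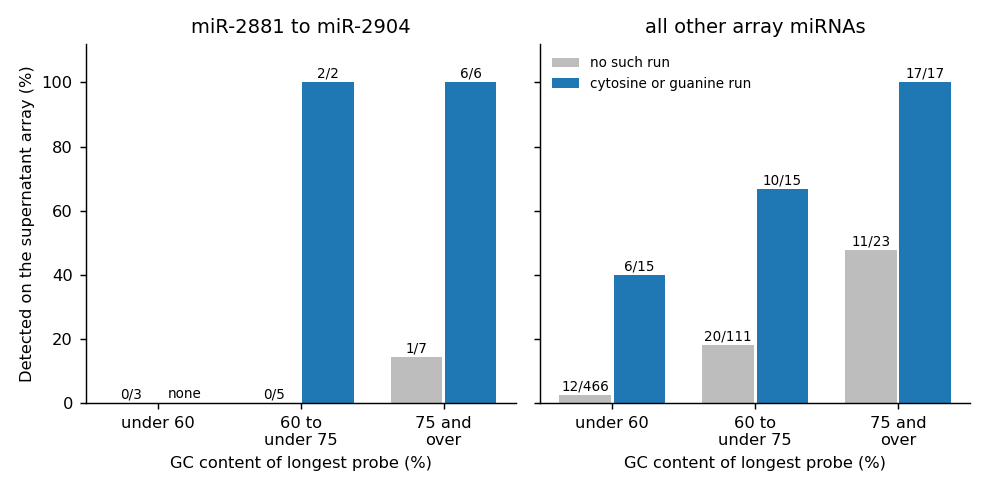
Share of miRNAs detected on the supernatant array (percent, bars from 0) by the GC content of the longest probe, for the 23 miRNAs of the block (left) and the other 647 (right). Blue bars are miRNAs with a run of at least 4 cytosines or at least 4 guanines in that probe, grey bars those without, and the numbers above give detected over total. In each class that holds both kinds the blue bar is the higher, for example 17 of 17 against 11 of 23 at a GC content of at least 75% on the right.

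The run also went with the order of the differences. Of the 30 miRNAs detected on both arrays 15 had a run. They made up 13 of the 15 with the lowest exosome over supernatant ratio and 2 of the 15 with the highest. Without the 3 miRNAs of the block, 10 of the remaining 12 in the lower part had one. Among the others with GC of at least 75%, the order was the opposite. Their median scaled difference was -0.64 for 9 with a run and -3.33 for 2 without. From 60% to under 75% it was 1.09 (2 miRNAs) and 4.18 (6), and below 60% it was -0.83 (1) and 6.10 (7). With longest probes of at most 14 bases it was -0.64 (9) and -0.38 (4). The parts of run, GC content and length were not tested. Each shorter probe of the block was also sought whole inside the probes of other miRNAs, ungapped and with at most 1 mismatch. Stretches shared over only part of a probe were not sought. No shorter probe of the block matched inside a probe of another member. Outside the block, only miR-2889 had a match, to miR-2415*, which was also detected on neither array. These comparisons cover the probes and not the full miRNAs, whose sequences were not analysed here.

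The array design gives each probe a place in HGSC Btau_3.1. At 17 of the 28 places the interval falls short of the probe by 1 base, so the ends are uncertain by that much, and the strand was not analysed here. The longer probes of the members detected on both arrays lie at chr7:10905973-10905982 (miR-2881), at chr12:75101964-75101973 (miR-2892), and, for miR-2888, at both chr21:35870386-35870397 and chr22:59347402-59347413. Those on the supernatant array only lie at chr7:13891726-13891736 (miR-2882), chr29:41706170-41706178 (miR-2885), chr8:77307666-77307678 (miR-2898), chr18:41190542-41190553 (miR-2899) and chr3:124988016-124988028 (miR-2902). miR-2902 has a further place on an unplaced contig, and miR-2893 lies on an unplaced contig only. The block is spread over the genome, though 7 of the 23 have a place on chromosome 18.

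miR-2887 and miR-2904 are the only close neighbours of the block. On chromosome 18 the design puts miR-2887 at chr18:59928741-59928752 and miR-2904 at chr18:59928635-59928648, with 92 bases between them. On chromosome 21 they lie at chr21:52041895-52041906 and chr21:52042002-52042015, with 95 bases between. They did not read alike. The 14-base probe of miR-2904 read -0.46 ± 3.47 in exosome and 3.09 ± 4.16 in supernatant, at background on both arrays, while miR-2887 was detected on the exosome array. In RefSeq's annotation of ARS-UCD2.0, used only for names and neighbours, 1 of the 2 miR-2887 genes overlaps a pseudogene and lies within 10 kb of RN18S1, which encodes the 18S ribosomal RNA, and of another ribosomal RNA gene.

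RefSeq names matched 22 of the 23 miRNAs, all but miR-2904, and 14 of these have a gene that overlaps a protein-coding gene. Whether the overlap is with an exon or an intron was not analysed here. Among the detected ones, miR-2893 overlaps CABIN1, which encodes a calcineurin-binding protein, miR-2882 overlaps SMARCA4, the ATPase of a chromatin remodelling complex, and miR-2885 overlaps SYT7, a calcium sensor of vesicle fusion. A miR-2888 gene overlaps GRIP2, a scaffold protein of glutamate receptors, and the other miR-2888 gene has no neighbour within 10 kb. The genes of miR-2898 and miR-2899 have no overlapping gene and no neighbour within that distance. The undetected miR-2886 lies in HOXB3 beside other HOXB genes and the miR-10a gene, miR-2900 overlaps the imprinted gene PEG3, and miR-2896 overlaps SKI, a repressor of TGF-beta signalling.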

How the data were processed

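Per the labels' protocols, the spin lasted 90 min at 4 °C, and Cy3 label was put on 40 ng of the pooled RNA. Per the file headers, both arrays lay on 1 slide. Agilent Feature Extraction 10.7.3.1 is named in the submitters' processing notes. The deposited scanner files give spot intensities, of which the processed signal was used, after the software's background subtraction. The deposited log2 table equals log2 of the software's total gene signal with a floor of 0.1 (largest deviation 6.2e-06). Other steps by the authors are not given in the sources used here.

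Outlier spots were left out: 1005 (exosome) and 1032 (supernatant) of 40200 miRNA spots, and 32 on each array of the block's 1380. No spot of the block was saturated. Spots were averaged per probe, then probes per miRNA, and divided by the 75th percentile of probes detected on both arrays. The SD of a difference joins the relative spot SDs of both arrays. A bound is given only above 1-fold. All 23 members are named, the detected ones in full. The members, marker lists and comparison groups were chosen with earlier results of these data known. The number of arrays limits the precision. The differences were tested on simulated spots of bright miRNAs present on both arrays. Bounds, detection on 1 array only and unequal brightness of the arrays were not tested that way. Normexp ran in limma 3.58.1 under R 4.3.3, the rest in Python 3.11.15 (pandas 2.3.3, numpy 2.4.6).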

Additional observations from a re-analysis of the deposited data

How the results depend on the processing

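With positive and significant spots in place of well above background, the exosome array detected 8 members, 8 being on both arrays, against 26.3% of all miRNAs on the exosome array, and the supernatant array 13, against 27.0%. Under this flag 10 were at least 2-fold higher in supernatant, against 8.81% of all miRNAs, and 2 in exosome, against 19.7%. Every other detection rule kept the detection counts within 1.5 times. The supernatant count of 2 became 9 without scaling, with the 75th percentile of all probes, with the labelling controls and with the hybridisation controls, 6 with quantile normalization, 4 with the total gene signal and 5 with the value table, against 2.09% to 11.5% of all miRNAs under these scalings and signals. It was 4 when bounds were taken against the lowest detected miRNA in place of the lowest detected probe, a choice added after the data were seen. The exosome count of 1 became 0 with every probe required, without scaling, with the 75th percentile of all probes and with either kind of control. Of all miRNAs, 0.597% to 3.28% were counted under these settings. It became 2 with the software gene flag and with the value table, against 9.25% and 9.10% of all miRNAs.

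The median log2 difference of members on both arrays, -0.69, was -3.02 with positive and significant spots, -0.062 with 25% of spots, -0.15 with the software gene flag, -0.84 with outlier spots kept, -5.68 without scaling, -5.42 with the 75th percentile of all probes, -3.15 with quantile normalization, -7.26 with labelling controls, -5.60 with hybridisation controls, 0.49 with normexp, -0.54 with the brightest probe, -0.44 with the total gene signal and 0.056 with the value table. Positive and significant spots, 25% of spots, the gene flag and the value table also added members to this median. The difference of miR-2888, past 2-fold as reported, kept its sign, whereas those of miR-2881 and miR-2892, under 2-fold, did not. For miR-2893 and miR-2887 a bound is given only toward the array that detected them, so its sign could not turn. Where a looser flag, spot share or the value table had miR-2887 on both arrays, its difference was 3.71 to 6.81. The block's split by runs of 4 C or G, with 8 of 8 and 1 of 15 detected on the supernatant array, became 9 of 16 and 0 of 7 for runs of 3, and 3 of 3 and 6 of 20 for runs of 5. A run of at least 3 lowered the share of other miRNAs detected on the supernatant array to 29.0%, against 4.03% without one, and a run of at least 5 raised it to 100% of 10, against 10.4%. Over the other detection rules it stayed between 63.8% and 78.7%, against 5.83% to 21.8%. No paired analysis was possible because each fraction has 1 array.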
